A study of Homo sapiens with 2 samples.

Results

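The small-RNA libraries of MDA-MB-468 and BT474 cells held, beside the annotated microRNAs (miRNAs), reads assigned to predicted hairpins that carried no established miRNA name. In the deposited table such a candidate is identified by its chromosome and a running number, and it is named here by these, as in chr5_23376, without the prefix that all candidates share. The 191 candidates described here were chosen by their raw counts, with a minimum of 10 in at least 1 library, out of 384 candidates and 2121 rows in all. Of these, 154 reached 10 counts in MDA-MB-468, against 121 in BT474. The counts that chose the members are the same counts that are described below, so levels, sharing and ratios are descriptions of these libraries and no test is attached to them. The arm and the chromosome were not used in the choice. The authors' normalized values and the closeness of counts between rows were not used either, but they follow the raw counts and are not independent of it.

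MDA-MB-468 is a human breast cancer cell line without oestrogen receptor (ER), progesterone receptor and HER2, and BT474 is an ER-positive human breast cancer cell line, per the labels. From each line a stem-enriched subpopulation was sorted by flow cytometry on the surface proteins CD24 and CD44, and 1 small-RNA library was sequenced per line. MDA-MB-468 cells were grown in DMEM and BT474 cells in RPMI-1640 medium, with the same serum and antibiotics, so that cell line and medium cannot be told apart. Unsorted cells were not analysed here. With 1 library per line no difference has a replicate check, and every interval is a 95% interval for counting error alone. The reads carry no molecular identifiers, and PCR copies are not independent molecules, so the intervals say nothing of the spread between cultures.

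A miRNA is cut from a hairpin transcript, first by Drosha in the nucleus and then by Dicer in the cytoplasm. Each hairpin can give a mature strand from its 5p arm and from its 3p arm, and usually one of them enters Argonaute and guides it to messenger RNAs through the seed near its 5′ end. Prediction programs call a candidate hairpin where reads pile up at a genomic site whose sequence can fold back on itself. Fragments of other structured RNAs, and reads that match several genomic sites, can give such piles as well. A candidate is therefore a prediction and not an established miRNA, and none of the 191 is treated as one here.

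The annotated miRNAs summed to 11448022 counts in MDA-MB-468, against 5133057 in BT474, and levels are given in counts-per-million (CPM) of these totals. At these depths 10 counts were 0.874 CPM in MDA-MB-468, against 1.95 CPM in BT474. A blank cell is a value that was not listed. The smallest listed count was 2, and a blank was set at 3 counts in ratios, which is 0.262 CPM in MDA-MB-468, against 0.584 CPM in BT474. Of the miRNAs used to check the labels, the 4 basal markers (miR-205-5p, miR-221-3p, miR-222-3p and miR-135b-5p) summed to 25647 CPM in MDA-MB-468, against 428 CPM in BT474, and all 4 were higher in MDA-MB-468. The 3 luminal markers (miR-342-3p, miR-375 and miR-190b) summed to 1405 CPM in MDA-MB-468, against 2765 CPM in BT474, with 1 called higher and 1 lower in MDA-MB-468. Blood cell markers (miR-142-3p, miR-223-3p and miR-451a) summed to 9.87 CPM in MDA-MB-468, against 22.0 CPM in BT474. Stromal markers (miR-143-3p, miR-145-5p and miR-199a-3p) summed to 371 CPM in MDA-MB-468, against 176 CPM in BT474. None of these markers was at 0 in either library, and their part in the candidates' levels was not tested.

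The candidates as a whole took a small and similar share of each library. They held 452321 of 12821080 listed counts in MDA-MB-468, or 3.53% (Clopper-Pearson interval 3.52 to 3.54), and 174839 of 6003612 in BT474, or 2.91% (2.90 to 2.93). Scaled to the annotated total this was 39511 CPM in MDA-MB-468, against 34061 CPM in BT474, so that the log2 ratio was 0.21 (0.21 to 0.22). That ratio was 0.01 when scaled to the total without the 10 most abundant annotated miRNAs and also with upper-quartile scaling. For comparison, the 204 annotated miRNAs numbered 3000 and above that passed the same minimum, most of which entered the catalogue late through deep sequencing, summed to 2462 CPM in MDA-MB-468, against 2284 CPM in BT474. The candidates' sum was 16.0 times that sum in MDA-MB-468, against 14.9 times in BT474.

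The counts sat in few candidates. The most abundant candidate held 21.0% of all candidate counts in MDA-MB-468, against 18.1% in BT474, the first 5 held 53.6% in MDA-MB-468, against 60.2% in BT474, and the first 10 held 78.9% in MDA-MB-468, against 80.1% in BT474. In MDA-MB-468, 17 candidates made up 90% of the counts, and in BT474, 19 did. Among the 204 late-numbered miRNAs the same share took 43 in MDA-MB-468, against 52 in BT474, and their first 10 held 68.7% in MDA-MB-468, against 62.8% in BT474. All 690 annotated miRNAs with the same minimum were more concentrated than the candidates at the very top. Their first held 25.2% in MDA-MB-468, against 54.3% in BT474, their first 5 held 58.8% in MDA-MB-468, against 68.3% in BT474, and their first 10 held 71.7% in MDA-MB-468, against 78.0% in BT474. The median candidate had 32 counts in MDA-MB-468, against 20 in BT474. By the larger of its 2 counts, a candidate stood at 1000 or more in 33 cases, at 100 or more but under 1000 in 40, at 30 to 99 in 48 and at 10 to 29 in 70. The 118 candidates under 100 counts held 0.557% of the candidate counts in MDA-MB-468, against 1.08% in BT474.

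**Figure D1:**
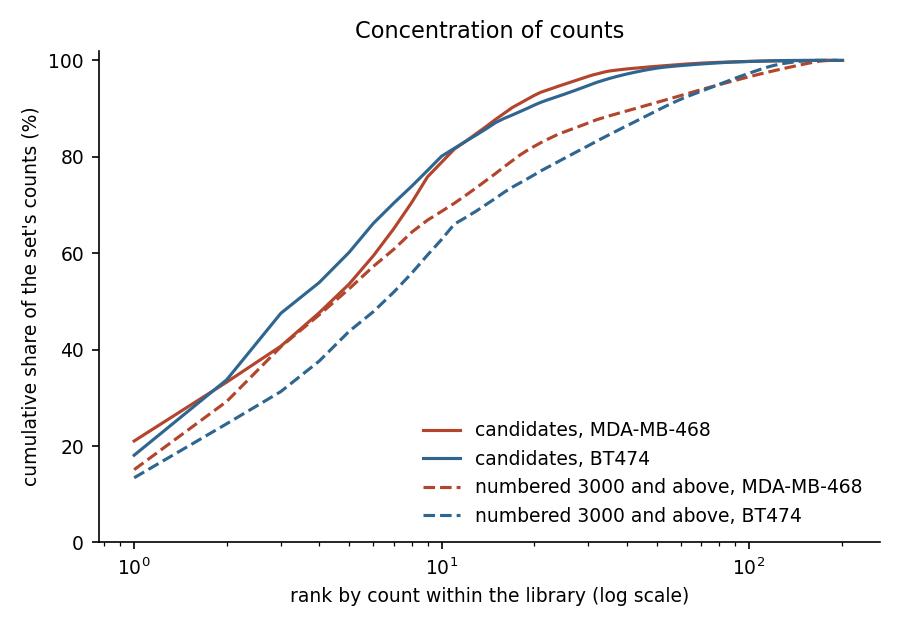
Cumulative share of counts (percent, y axis) against rank by count within a library (log scale, x axis), for the 191 candidates (solid lines) and the 204 annotated miRNAs numbered 3000 and above (dashed lines) in MDA-MB-468 (red) and BT474 (blue). At rank 10 the candidate lines reach 78.9% in MDA-MB-468 and 80.1% in BT474, above the dashed lines, which reach 68.7% in MDA-MB-468 and 62.8% in BT474.

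Some candidates stood at the threshold or just below it. The largest count was exactly 10 in 8 candidates, for example chr1_13090 (10 counts in MDA-MB-468, not listed in BT474) and chr1_12840 (not listed in MDA-MB-468, 10 counts in BT474). It was 9 in 15 candidates left outside, for example chr11_2382 and chr16_6810, each with 9 counts in MDA-MB-468 and not listed in BT474. The 193 candidates below the minimum held 611 counts in MDA-MB-468, against 440 in BT474, which is 0.135% of all candidate counts in MDA-MB-468, against 0.251% in BT474.

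The most abundant candidates stood among the more abundant annotated miRNAs. chr5_23376, on the 3p arm, had 95198 counts (8316 CPM) in MDA-MB-468, against 24110 counts (4697 CPM) in BT474, and of the 1623 annotated miRNAs 17 had more counts in MDA-MB-468, against 22 in BT474. It was the first candidate in MDA-MB-468 and the third in BT474, at a 1.77-fold higher level in MDA-MB-468 (interval 1.75 to 1.80). chr12_3278, on 5p, reached 55251 counts (4826 CPM) in MDA-MB-468, against 10565 counts (2058 CPM) in BT474. Its 2.34-fold difference (2.30 to 2.39) was called higher, which here means a ratio of at least 2-fold with an interval that excludes 1.

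The order was different in BT474. Its first candidate was chr22_16655, on 5p, with 33725 counts (2946 CPM) in MDA-MB-468, against 31637 counts (6163 CPM) in BT474. This was 2.09-fold lower in MDA-MB-468 (2.06 to 2.13), and that call was lost with median-of-ratios size factors (log2 -1.07 by the annotated total and -0.91 by size factors). chr3_19185, on 3p, reached 31404 counts (2743 CPM) in MDA-MB-468, against 27374 counts (5333 CPM) in BT474, 1.94-fold lower in MDA-MB-468 (1.91 to 1.98) and just short of a call. It passed 2-fold with upper-quartile scaling and with the total without the 10 most abundant annotated miRNAs (log2 -1.17 each). The raw counts of these candidates were similar in both libraries, while the annotated total was smaller in BT474.

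Of the next candidates, some stood at nearly equal levels and some did not. chr6_24155 (3p) had 2137 CPM in MDA-MB-468, against 2174 CPM in BT474, and its interval included equality (log2 -0.02, -0.06 to 0.01). chr19_10776 (3p) had 2326 CPM in MDA-MB-468, against 2125 CPM in BT474 (log2 0.13, 0.10 to 0.16). chr3_19592 (5p) had 1193 CPM in MDA-MB-468, against 1006 CPM in BT474 (log2 0.25, 0.20 to 0.29). Against these, 2 candidates of similar abundance in MDA-MB-468 were much scarcer in BT474. chr1_12195 (3p) had 2240 CPM in MDA-MB-468, against 436 CPM in BT474, a 5.14-fold difference (4.92 to 5.37). chr9_28191 (3p) had 2093 CPM in MDA-MB-468, against 429 CPM in BT474, a 4.88-fold difference (4.67 to 5.10).

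The 10 most abundant candidates of each library had 8 names in common. The other two in BT474 were chr3_20538 and chr21_16045. chr3_20538 (on 5p) reached 1564 counts (137 CPM) in MDA-MB-468, against 6091 counts (1187 CPM) in BT474, 8.69-fold lower in MDA-MB-468 (8.21 to 9.19). chr21_16045 (on 3p) reached 5679 counts (496 CPM) in MDA-MB-468, against 5684 counts (1107 CPM) in BT474, 2.23-fold lower in MDA-MB-468 (2.15 to 2.32).

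**Figure D2:**
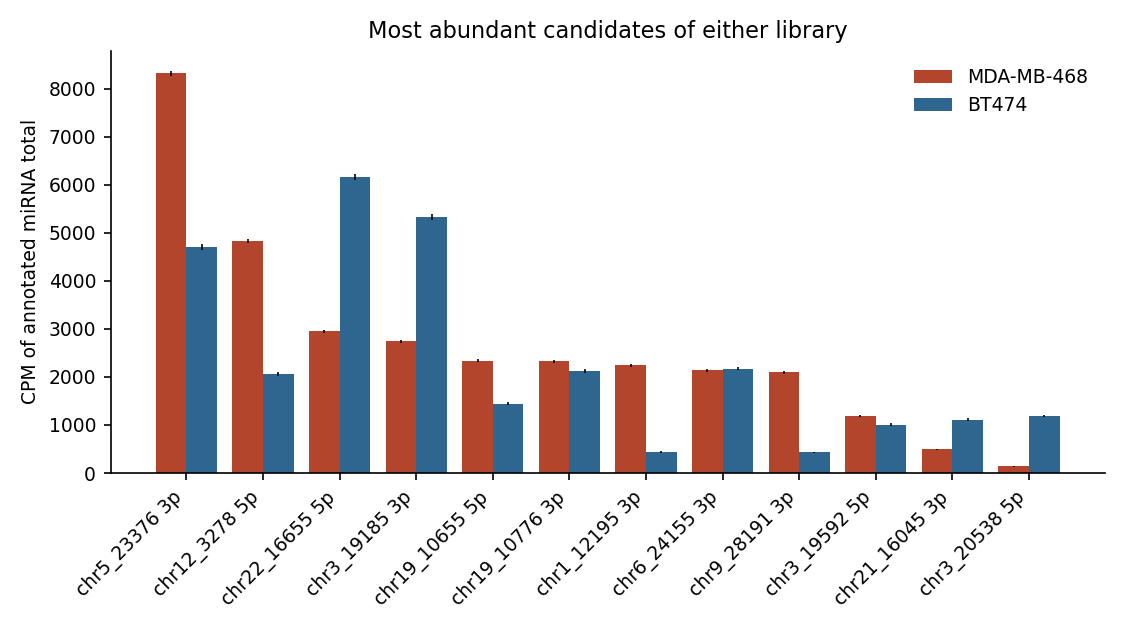
Level (CPM of the annotated miRNA total, y axis from 0) of the 12 candidates that were among the 10 most abundant of either library, with MDA-MB-468 (red) left of BT474 (blue) and exact Poisson 95% intervals as error bars. The bar of chr5_23376 is the highest in MDA-MB-468 (8316 CPM) and that of chr22_16655 the highest in BT474 (6163 CPM).

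A single abundant candidate had counts close to those of an annotated miRNA. chr19_10655, listed as a 5p strand on chromosome 19, had 26805 counts (2341 CPM) in MDA-MB-468, against 7396 counts (1441 CPM) in BT474. miR-24-3p, a miRNA of the miR-23/27/24 clusters listed on the precursor mir-24-2, had 26880 counts in MDA-MB-468, against 7414 in BT474, so the candidate was 0.279% below it in MDA-MB-468 and 0.243% below it in BT474. RefSeq places MIR24-2 on chromosome 19 (GRCh38.p14, 13836287 to 13836359, minus strand). Among the 69 candidates that reached 20 counts in both libraries, this was the only one within 1% of an annotated row in both libraries, a limit that was chosen after the values were seen. The candidate's own sequence and position were not used here, so whether the rows share reads was not tested. The sequences of the annotated neighbour are shown from RefSeq, with the seed (bases 2 to 8) in capitals in the mature strand and the mature 3p strand in capitals in the hairpin.
miR-24-3p: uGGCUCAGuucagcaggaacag
MIR24-2 hairpin: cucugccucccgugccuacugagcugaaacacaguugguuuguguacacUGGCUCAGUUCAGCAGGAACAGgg
In the table miR-24-3p belongs to the 3p arm of this hairpin, whereas chr19_10655 is listed as 5p of its own hairpin. Without chr19_10655 the candidates held 3.32% of the listed counts in MDA-MB-468, against 2.79% in BT474.

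Some candidates had counts that were the same, or nearly so, as those of another candidate. By the same limit 4 pairs were found. chr3_20172 and chr3_20174 (both 3p) each had 189 counts in MDA-MB-468, against 249 in BT474. chr13_4192 and chr13_4194 (both 3p) each had 204 counts in MDA-MB-468, against 229 in BT474. chr2_17401 and chr2_18526 (both 3p) each had 23 counts in MDA-MB-468, against 37 in BT474. chr10_204 and chr5_23413 (both 5p) lie on different chromosomes and had 1587 and 1590 counts in MDA-MB-468, against 644 each in BT474. Tags that match several hairpins can be listed under each, and whether the members of a pair count the same reads was not tested. With the rows of equal counts taken once, and each annotated miRNA taken once, the candidates' share was 3.79% in MDA-MB-468, against 3.28% in BT474.

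Every candidate was listed with a single arm, and none of the 384 candidate hairpins had a row for each arm, whereas 649 of 1087 annotated hairpins did. The sources used here do not name the hairpin predictor, so whether it can list both arms of a candidate is not known. Of the 191 candidates 118 were listed as 3p and 73 as 5p, so that 38.2% were 5p. Among annotated miRNAs with the same minimum 49.0% were 5p, and among those numbered 3000 and above 42.6%. Over all 384 candidates the share was 38.0%. The 5p candidates summed to 13720 CPM in MDA-MB-468, against 13653 CPM in BT474 (log2 0.01, -0.01 to 0.02). The 3p candidates summed to 25791 CPM in MDA-MB-468, against 20409 CPM in BT474 (log2 0.34, 0.33 to 0.35).

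The share of counts on 5p was thus 34.7% in MDA-MB-468 (34.6 to 34.9) and 40.1% in BT474 (39.9 to 40.3). This difference depended on abundant single candidates. chr22_16655 held 45.1% of the 5p counts in BT474. Without it the share was 29.5% in MDA-MB-468, against 26.8% in BT474, the other way round. Without chr5_23376, on 3p, it was 44.0% in MDA-MB-468, against 46.5% in BT474, in the same direction. On the 3p arm the leading candidate was chr5_23376 in MDA-MB-468, with 32.2% of the 3p counts, and chr3_19185 in BT474, with 26.1%. Of the 73 candidates on 5p, 18 were called higher and 28 lower in MDA-MB-468. Of the 118 on 3p, 44 were called higher and 34 lower. On 5p these are 24.7% higher and 38.4% lower, beside 28.7% and 33.7% of 338 annotated miRNAs on that arm. On 3p they are 37.3% higher and 28.8% lower, beside 36.9% and 23% of 352 annotated miRNAs. The annotated miRNAs thus also had more lower than higher calls on 5p and more higher than lower calls on 3p. Over both arms 32.9% of the annotated miRNAs were called higher and 28.3% lower. The neighbours in number chr21_15945 (3p, 115 counts in MDA-MB-468, against 42 in BT474) and chr21_15946 (5p, 15 counts in MDA-MB-468, against 3 in BT474) were the only members with consecutive numbers and different arms, and they were singled out after their values were seen.

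**Figure D3:**
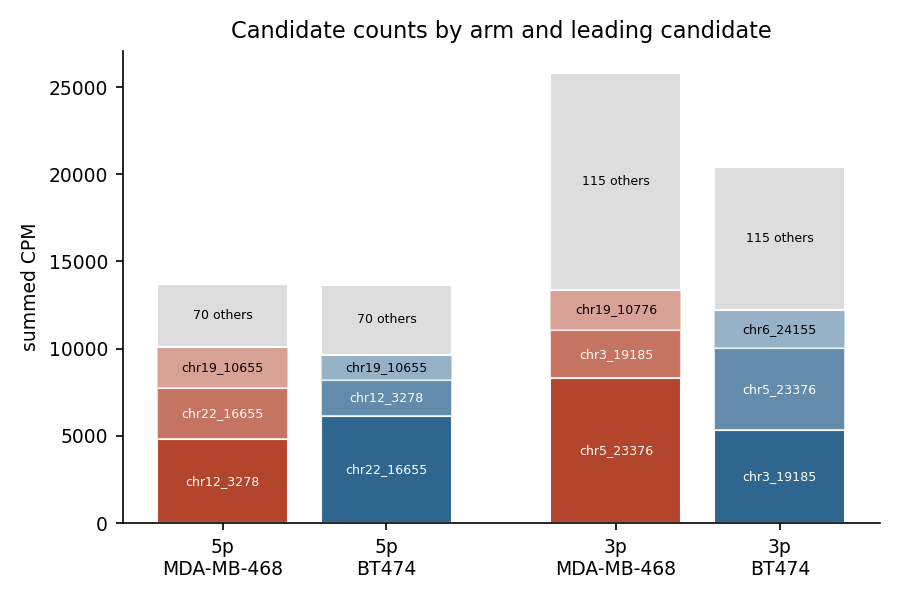
Summed CPM (y axis from 0) of the 73 candidates on 5p and the 118 on 3p, with MDA-MB-468 (red) left of BT474 (blue). Each bar is split into its 3 most abundant candidates and, in grey, the others. The 5p sums are close, with 13720 CPM in MDA-MB-468, against 13653 CPM in BT474, while chr22_16655 makes up 45.1% of the 5p bar in BT474.

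Of the 191 candidates 62 were called higher in MDA-MB-468, 62 lower and 67 neither. These are 32.5% of the candidates in each direction, beside the 32.9% higher and 28.3% lower of the 690 annotated miRNAs given above. Among the 204 late-numbered miRNAs 34.3% were higher and 32.4% lower. Over all members the candidates' shares were thus near the background in both directions. They include candidates that passed the minimum through 1 library and were blank in the other. Of the 125 candidates listed in both libraries 23.2% were higher and 31.2% lower. Beside these stand 28.9% and 26.9% of the 554 annotated miRNAs listed in both, and 28.1% and 33.8% of 139 late-numbered ones. The median log2 ratio was 0.42 over all 191 candidates and 0.30 over the 690 annotated miRNAs. The interquartile range was -2.17 to 1.48 for the candidates, against -1.32 to 1.58 for the annotated miRNAs. Over the 125 candidates listed in both libraries Pearson's correlation of log2 CPM was 0.81 and Spearman's 0.75. Over the 554 annotated miRNAs listed in both it was 0.82 and 0.77, and over the 139 late-numbered ones listed in both 0.47 and 0.27. These correlations run across rows of the same pair of libraries, and rows are not independent replicates.

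Calls were found at every level of abundance. Of the 33 candidates that reached 1000 counts in either library, 12 were called higher, 4 lower and 17 neither, or 36.4% higher and 12.1% lower, beside 34.8% and 17.4% of 178 annotated miRNAs in that class. Of the 40 with 100 or more but under 1000 counts, 12 were higher and 12 lower, beside 59 and 48 of 168 annotated miRNAs. Of the 118 with fewer counts, 38 were higher and 46 lower, beside 106 and 116 of 344 annotated miRNAs. Besides those already named, the abundant candidates called higher included chr14_5498 (1078 CPM in MDA-MB-468, against 451 CPM in BT474), chr19_11061 (630 CPM in MDA-MB-468, against 137 CPM in BT474) and chr4_21199 (650 CPM in MDA-MB-468, against 236 CPM in BT474). chr6_24825 had 591 CPM in MDA-MB-468, against 298 CPM in BT474, a 1.98-fold difference that fell just short.

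The net surplus of 5449 CPM in MDA-MB-468 was the balance of larger differences. The 112 candidates with a higher level there added 14776 CPM, and the 79 with a lower level had a summed difference of -9326 CPM. On the positive side chr5_23376 contributed 3619 CPM, chr12_3278 2768 CPM, chr1_12195 1804 CPM and chr9_28191 1665 CPM. On the negative side chr22_16655 contributed -3217 CPM, chr3_19185 -2590 CPM and chr3_20538 -1050 CPM. Without chr5_23376 the log2 ratio of the sums was 0.09, against 0.21 with it.

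**Figure D4:**
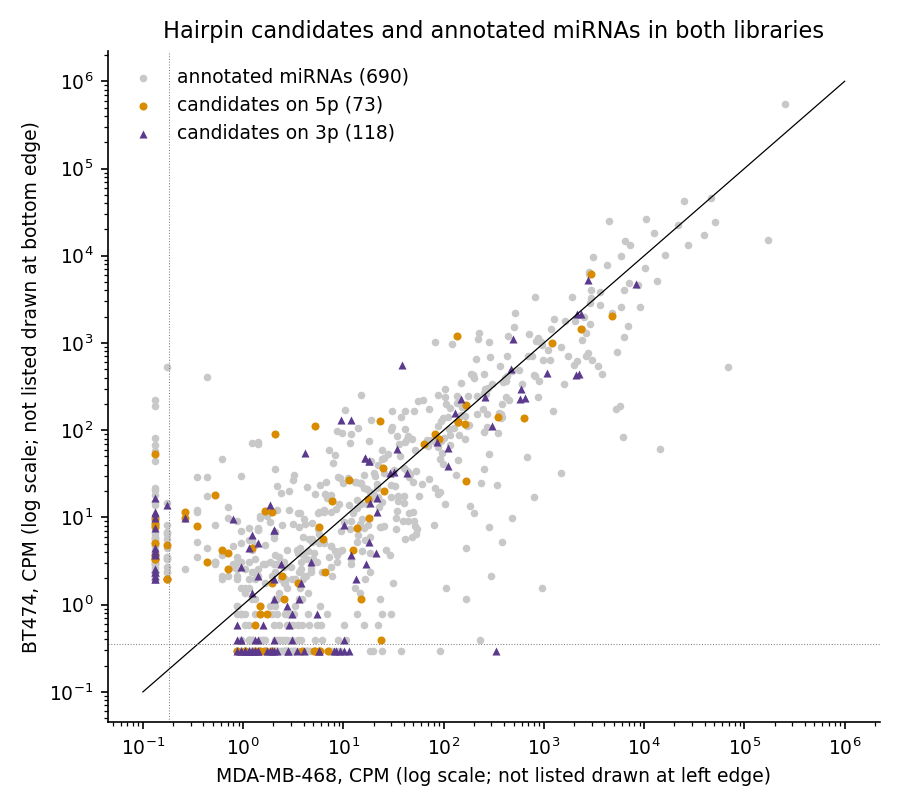
Level in BT474 (CPM, log scale, y axis) against level in MDA-MB-468 (CPM, log scale, x axis) for the candidates on 5p (orange circles, 73) and on 3p (purple triangles, 118) and for 690 annotated miRNAs (grey). Values not listed are drawn at the left and bottom edges, beyond the dotted lines, and the diagonal marks equal levels. Listed counts of 2 in MDA-MB-468 (0.175 CPM) also fall just left of the vertical dotted line. The candidate triangle at the bottom edge with 334 CPM in MDA-MB-468 is chr7_26990.

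The 10 highest and the 10 lowest ratios were taken among the 73 candidates that reached 100 counts in either library. The highest belonged to chr7_26990 (3p), with 3823 counts (334 CPM) in MDA-MB-468 and no listed value in BT474. With the blank set at 3 counts it was at least 571-fold higher in MDA-MB-468, and its exact interval, with the blank at 0, began at 464-fold. In MDA-MB-468 it ranked 19th among the candidates, and 103 annotated miRNAs had more counts. No other candidate that was blank in a library came near this count. The next ratios were lower and rested on few BT474 counts. chr11_2037 (on 5p) reached 274 counts in MDA-MB-468, against 2 in BT474 (61.4-fold, 16.8 to 510). chr17_8442 (3p) had 116 counts in MDA-MB-468, against 2 in BT474 (26.0-fold, 7.04 to 217).

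Of the other high ratios, 3 belonged to candidates blank in BT474. chr15_5962 had 131 counts in MDA-MB-468, chr10_804 had 117 and chr1_12437 had 107, all on 3p and at least 19.6-fold, 17.5-fold and 16.0-fold higher there in this order with the blank at 3 counts. Their exact intervals began at 15.7-fold, 14.0-fold and 12.8-fold. The remaining ones had listed counts in both libraries. chr15_5824 (5p) had 172 counts in MDA-MB-468, against 6 in BT474, chr9_28393 (3p) 153 in MDA-MB-468, against 10 in BT474, and chr19_10600 (3p) 192 in MDA-MB-468, against 15 in BT474. Their log2 ratios were 3.68 (2.53 to 5.15), 2.78 (1.86 to 3.87) and 2.52 (1.76 to 3.39). The most firmly counted of this group was chr3_19156 (5p), with 1932 counts (169 CPM) in MDA-MB-468, against 134 counts (26.1 CPM) in BT474 and a log2 ratio of 2.69 (2.44 to 2.96).

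In the other direction chr10_1017 (5p) had no listed value in MDA-MB-468, against 276 counts (53.8 CPM) in BT474. With the blank set at 3 counts it was at least 205-fold lower in MDA-MB-468, and its exact interval began at 166-fold. chr2_17198 (on 5p) reached 24 counts (2.10 CPM) in MDA-MB-468, against 468 counts (91.2 CPM) in BT474, 43.5-fold lower in MDA-MB-468 (28.9 to 68.6). chr3_19830 (on 5p) reached 59 counts (5.15 CPM) in MDA-MB-468, against 581 counts (113 CPM) in BT474, 22.0-fold lower in MDA-MB-468 (16.8 to 29.2). The 3 lowest ratios were all on 5p.

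Of the other low ratios, the most abundant candidate after chr3_20538 was chr12_3530 (3p), with 436 counts (38.1 CPM) in MDA-MB-468, against 2873 counts (560 CPM) in BT474, 14.7-fold lower in MDA-MB-468 (13.3 to 16.3). chr10_325 (3p) had 109 counts in MDA-MB-468, against 677 in BT474 (log2 -3.79), and chr19_10083 (3p) had 47 in MDA-MB-468, against 282 in BT474 (-3.74). chr12_2847 (3p) had 136 counts in MDA-MB-468, against 667 in BT474 (-3.45), and chr2_18455 (5p) had 268 in MDA-MB-468, against 653 in BT474 (-2.44). The list ended with chr3_20172 (3p), one of the pairs with equal counts (log2 -1.56, -1.84 to -1.28). With the authors' normalized values, and a blank there set at 1 unit, 10 of these 20 highest and lowest ratios moved by over 1.5 times. Of the 10, 7 came nearer to equality, each of them blank in a library of the normalized table. The blank at 1 unit is a higher floor than 3 counts, since 1 unit corresponded to 13.0 counts in MDA-MB-468, against 6.13 in BT474. The move of these 7 is therefore in part set by the floor. chr11_2037 then stood at log2 4.32 instead of 5.94, chr17_8442 at 2.58 instead of 4.70, and chr10_1017 at -5.43 instead of -7.68. chr7_26990 stood at 8.19 instead of 9.16, and chr15_5962, chr10_804 and chr1_12437 stood at 3.32, 3.00 and 2.58 instead of 4.29, 4.13 and 4.00. The other 3 moved away from equality: chr2_17198 stood at -6.17 instead of -5.44, chr3_19830 at -5.51 instead of -4.46, and chr12_2847 at -4.07 instead of -3.45.

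Scaled to the annotated total, the closest to equal levels among the 20 candidates with at least 1000 counts in both libraries was chr6_24155, described above. It was followed by chr6_24838 (471 CPM in MDA-MB-468, against 504 CPM in BT474, log2 -0.10), chr6_24327 (259 CPM in MDA-MB-468, against 237 CPM in BT474, 0.13), chr19_10776 (0.13) and chr6_24521 (169 CPM in MDA-MB-468, against 196 CPM in BT474, -0.22). All of these are listed on chromosome 6 except chr19_10776. The intervals of the last 4 excluded equality for counting error. With other scalings 3 of these differences changed sign: chr6_24838 stood at 0.06 with size factors, and chr6_24327 and chr19_10776 each stood at -0.08 with upper-quartile scaling. chr6_24521 stayed negative under each scaling tried, at -0.06 with size factors and -0.43 with upper-quartile scaling. chr6_24155 itself stood at 0.13 with size factors, a change of sign, and at -0.23 with upper-quartile scaling. With the latter chr3_19592 was nearer to equality, at 0.04.

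Of the 191 candidates 125 were listed in both libraries, 43 in MDA-MB-468 alone and 23 in BT474 alone. The 43 are 22.5% and the 23 are 12.0% of the candidates, beside 13% and 6.67% of the 690 annotated miRNAs. Among the 204 late-numbered miRNAs 46 were not listed in BT474 (22.5%) and 19 not in MDA-MB-468 (9.31%), so that in MDA-MB-468 the candidates' share was the same as that of late-numbered miRNAs to the digits given. These candidates passed the minimum through the library that lists them, and they were scarce. Their median count was 22 in MDA-MB-468 (10 to 3823) and 21 in BT474 (10 to 276). Only 4 of the 43 and 1 of the 23 had 100 counts or more.

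Within ranges of count the share not listed in the other library was as follows. Of the 56 candidates with 10 to 29 counts in MDA-MB-468, 44.6% were not listed in BT474, against 36.8% of 163 annotated miRNAs and 37.5% of 88 late-numbered ones. Of the 29 with 30 to 99 counts it was 48.3%, against 19.5% of 123 annotated miRNAs and 26.7% of 45 late-numbered ones. Of the 38 candidates with 10 to 29 counts in BT474, 36.8% were not listed in MDA-MB-468, against 19.6% of 138 annotated miRNAs and 20.7% of 58 late-numbered ones. Of the 30 with 30 to 99 counts it was 26.7%, against 9.82% of 112 annotated miRNAs and 7 of 35 late-numbered ones. At 100 counts or more it was 5.80% of 69 candidates in MDA-MB-468, against 1.89% of 53 in BT474, where annotated miRNAs stood at 1.89% of 317 in MDA-MB-468 and 3.13% of 256 in BT474. No test was made of these differences.

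**Figure D5:**
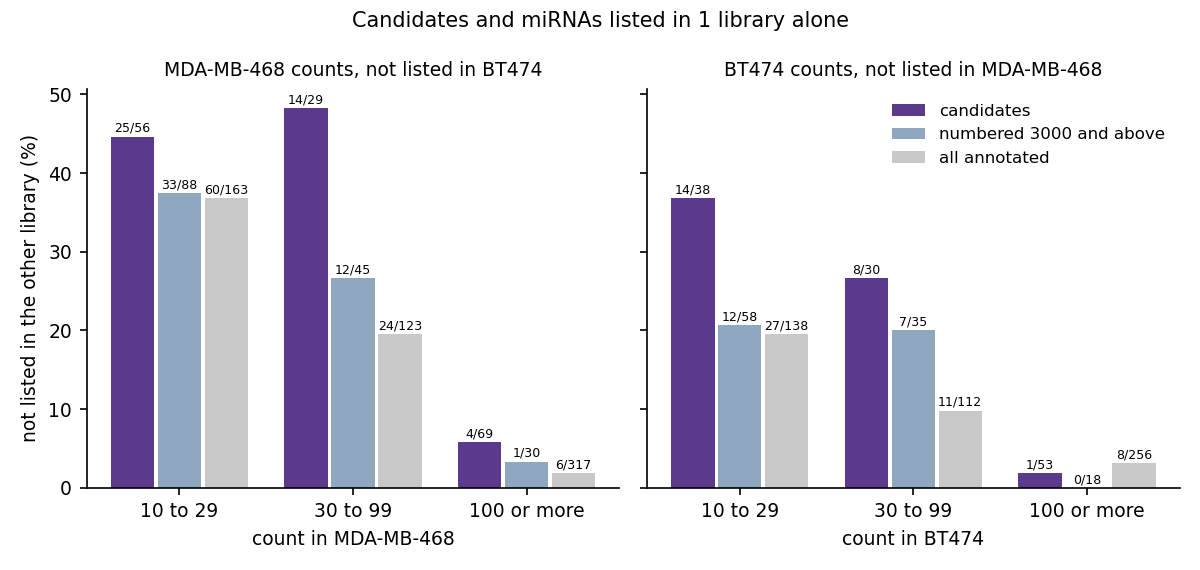
Share (percent, y axis from 0) not listed in the other library, by range of count (x axis), for candidates (purple), annotated miRNAs numbered 3000 and above (blue-grey) and all annotated miRNAs (light grey), from MDA-MB-468 counts (left) and BT474 counts (right). The fractions above the bars are the numbers behind them. The largest gap between candidates and annotated miRNAs is at 30 to 99 counts in MDA-MB-468, with 48.3% and 19.5%.

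Besides chr7_26990, chr15_5962, chr10_804 and chr1_12437, the fifth most abundant candidate listed in MDA-MB-468 alone was chr1_13942 with 97 counts. All 5 are on 3p, as were 31 of the 43, beside 118 of all 191 candidates. In BT474 alone, chr10_1017 was followed by chr17_9032 with 85 counts, chr1_12673 with 60, chr1_13030 with 57 and chr15_5938 with 51, all on 3p, and 15 of the 23 were on 3p. The depth of the libraries bears on these calls unequally. Against a blank at 3 counts, 10 counts are a 1.49-fold difference in MDA-MB-468 and a 7.43-fold difference in BT474. All 23 candidates listed in BT474 alone were therefore called lower, whereas 33 of the 43 listed in MDA-MB-468 alone were called higher, those with 14 counts or more. When the MDA-MB-468 counts were thinned to the BT474 total, 23 candidates were listed in MDA-MB-468 alone and 26 in BT474 alone, among 161 that then passed the minimum. Of the 611 annotated miRNAs that then passed it, 43 were listed in MDA-MB-468 alone and 67 in BT474 alone.

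By chromosome the candidates were most frequent on chromosome 1 (24), chromosomes 2 and 3 (16 each) and chromosome 19 (15). The counts followed single candidates: chromosome 5 held 21.4% of the candidate counts in MDA-MB-468, against 14.2% in BT474, nearly all from chr5_23376, and chromosome 22 held 7.46% in MDA-MB-468, against 18.1% in BT474, nearly all from chr22_16655. Positions within chromosomes were not used here.

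The authors' normalized values kept nearly all counts of abundant candidates and fewer of those of scarce ones. Of the 191 candidates 170 had a normalized value in at least 1 library and 21 in neither, beside 47 of 690 annotated miRNAs in neither. 1 normalized unit corresponded to a median of 13.0 counts in MDA-MB-468, against 6.13 in BT474 among annotated miRNAs above 500 units. Multiplied back by these factors, the normalized values of candidates with 1000 counts or more recovered a median of 99.3% of the raw counts in MDA-MB-468 (91.3 to 101) and 99.9% in BT474 (92.5 to 101). For candidates with 30 to 99 counts it was 59.1% in MDA-MB-468, against 85.8% in BT474, where annotated miRNAs in that range were at 78.0% in MDA-MB-468 and 86.1% in BT474. Of the 56 candidates with 10 to 29 counts in MDA-MB-468, 23 were blank in the normalized table, as were 59 of 163 annotated miRNAs. Of the 38 candidates with 10 to 29 counts in BT474, 5 were blank there. With the normalized values 40 of the 62 candidates called higher and 54 of the 62 called lower still differed by at least 2-fold in the same direction, no interval being computed for them. Since 1 unit stands for more counts in MDA-MB-468, scarce candidates were limited unequally in the libraries, and the part of this in the kept calls was not tested. The same shares of annotated miRNAs are not given here.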

How the data were processed

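Small RNAs were measured in 1 library from each of 2 cell lines, grouped by the cell line in the labels; the column headed MAD-MB-468 was taken for MDA-MB-468. Per the labels, RNA was isolated with Trizol, and fragments corresponding to small RNAs were selected and sequenced on an Illumina HiSeq. The authors deposited raw counts, which per the file headers sum every isoform tag of a mature sequence per precursor, and a second table with scores, which are normalized values that the authors deposited as whole numbers. The submitters' processing notes name Novoalign 2.07.11. The sources used here do not state the build, the annotation release, the hairpin predictor or the scaling of the scores.

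The members and lists were chosen with earlier results of these data known. Annotated names on several precursors took their largest count, and miR-199a-3p and miR-199b-3p were merged, which gave 1623 miRNAs. Ratios have exact conditional binomial intervals, shares exact Clopper-Pearson intervals and levels exact Poisson intervals at the 95% level. In intervals a blank was taken as 0, and in ratios as 3 counts. The rows named are the 10 with the most counts in each library, the 10 with the highest and the 10 with the lowest ratio at 100 counts or more, the 5 most abundant blank in the other library, and the 5 nearest equality with at least 1000 counts in both libraries. Others were named after their values were seen. The call rule was tested on simulated data. Python 3.11.15, NumPy 2.4.6, pandas 2.3.3, SciPy 1.17.1 and Matplotlib 3.10.9 were used.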

Additional observations from a re-analysis of the deposited data

How the results depend on the processing

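No paired analysis was possible because each line has 1 library, and for the same reason no library could be left out. Scaling moved every log2 ratio by a constant: -0.21 with the total without the 10 most abundant annotated miRNAs and with upper-quartile scaling, 0.16 with size factors and -0.01 with candidates in the total. The log2 ratio of the summed counts was 0.0069 without those 10 miRNAs, 0.0068 with upper-quartile scaling, 0.37 with size factors and 0.21 with candidates in the total, with the authors' normalized values 0.28, without chr19_10655 0.19 and without chr5_23376 0.087. The calls stood at 55 to 70 higher and 61 to 65 lower under these scalings. They were 35 higher and 28 lower with at least 50 counts, and 32 higher and 48 lower at 4-fold. With no minimum they were 62 higher and 96 lower. Fewer than 10 counts in BT474 can then be called lower against a blank, whereas a higher call against a blank took 14 counts in MDA-MB-468. After thinning 50 of 161 candidates were called higher and 60 lower, beside 196 and 194 of 611 annotated miRNAs. The annotated shares under the other settings are not given here. Candidates listed in 1 library alone numbered 23 in MDA-MB-468, against 26 in BT474, after thinning, beside 43 and 67 of 611 annotated miRNAs. With at least 50 counts they numbered 13 in MDA-MB-468, against 5 in BT474. No named ratio that was called changed sign.

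In MDA-MB-468 the share of listed counts was 3.79% with equal rows taken once, 3.52% with at least 50 counts, 3.49% with the authors' normalized values and 3.32% without chr19_10655. In BT474 it was 3.28%, 2.90%, 2.88% and 2.79% in the same order of settings. The first 10 candidates held 79.0% in MDA-MB-468 with equal rows taken once, 79.3% with the normalized values and 80.4% without chr19_10655, and 80.4%, 80.8% and 81.0% in BT474. The 5p share was 38.2% of rows. Without chr22_16655 it was 29.5% of counts in MDA-MB-468, against 26.8% in BT474, and without chr5_23376 it was 44.0% in MDA-MB-468, against 46.5% in BT474. The alternatives that leave out a candidate were chosen after seeing the data. Depth limits the candidates below 100 counts, since the 3 counts set for a blank are 0.262 CPM in MDA-MB-468, against 0.584 CPM in BT474.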
